A study of Mus musculus with 8 samples.

Results

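The lysosome and autophagy genes described here are 45 of the 20781 genes in the deposited table of RNA counts from fibro-adipogenic progenitors (FAPs) kept with vehicle or melatonin. They were picked by symbol, matched through GENCODE release M21, and comprise 4 lysosomal membrane proteins, 9 cathepsins, the peptidase gene Tpp1 with the saposin precursor Psap, 13 glycosidases and sulfatases, 5 proton pump subunits, 3 MiT/TFE factors and 9 autophagy genes. All 45 were in the table and all 45 were among the 16565 genes tested.

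Lysosomes are acidic compartments in which hydrolases break down proteins, glycans and lipids, and autophagy delivers the cell's own material to them in double-membrane vesicles. A proton pump acidifies the lumen, and membrane proteins protect the wall and let ions and products out. The transcription factors TFEB, TFE3 and MITF (the MiT/TFE family) are known to bind a promoter sequence, the CLEAR element, near many lysosome and autophagy genes, and nutrient signalling through mTORC1 holds them in the cytoplasm. In FAPs, stromal cells of skeletal muscle able to form fat cells or fibroblasts, lysosomal proteases also take part in matrix turnover and autophagy in adipocyte formation.

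The FAPs came from tibialis anterior, gastrocnemius and quadriceps muscles, not injured, of male wild-type mice, with the strain given as C57BL/6 in one label and C57BL/6J in another. After 48 h of culture, the cells of 4 libraries were given vehicle and those of 4 libraries melatonin, each for 24 h. The labels name no other treatment or allele in either group. Melatonin is the pineal hormone, and its concentration is not stated in the labels. The labels call the 4 libraries of a condition biological replicates without naming animals, and their extraction protocol names longissimus dorsi as the muscle, which differs from the 3 muscles above.

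Total counts were 35584931 to 52401153 per library. The main axis of a principal component analysis (55.1% of the variance) separated the groups, and on the next axis (14.4%) melatonin replicate 4 lay at -54.4 against 18.5 to 25.5 for the other melatonin libraries. All 8 FAP markers checked were present, with a summed level of 2501 to 2529.8 CPM with vehicle and 1708 to 1832 CPM with melatonin (CPM are counts scaled to a common library size), and 4 of 8 were lower. The 5 adipocyte markers in the table summed to 112 to 119 CPM with vehicle and 676 to 852 CPM with melatonin, and 5 of 5 were higher. The 10 macrophage markers summed to 517 to 783 CPM with vehicle and 327 to 600.5 CPM with melatonin, 9 of them at 1 CPM or more on average, and melatonin replicate 4 was the lowest. Endothelial markers summed to 30.8 to 37.4 CPM with vehicle and 45.8 to 55.4 CPM with melatonin, which did not overlap. Of 6 tested, only Tek was higher (17.1 to 35.3 CPM on average), Vwf was lower (2.48 to 0.576 CPM) and 4 did not pass. Glial markers summed to 15.4 to 16.7 CPM with vehicle and 17.0 to 19.7 CPM with melatonin, also apart, and of 3 tested Sox10 was higher. Mural cell markers overlapped in sum (74.4 to 102 CPM and 73.4 to 107 CPM), with Kcnj8 and Abcc9 higher and Rgs5 lower of 5 tested. Tenocyte markers overlapped in sum (943 to 1294 CPM and 1026 to 1238 CPM), with Tnmd lower of 4 tested. Myogenic markers summed to 57.1 to 82.5 CPM with vehicle and 31.3 to 132 CPM with melatonin, and the edgeR adjusted p of the 4 tested ran from 0.13 to 0.76, with Pax7 and Myf5 not analysed here. In bulk RNA, a change in the number of cells of a type and a change in RNA per cell cannot be told apart, and the part of these markers in the results below was not tested.

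Of the 45 lysosome and autophagy genes, 18 were higher and 6 were lower with melatonin at an adjusted p under 0.05 (edgeR quasi-likelihood test, Benjamini-Hochberg adjustment over all 16565 genes), and 21 did not pass. That is 40% higher and 13.3% lower, where 18.1% of all tested genes were higher and 18.5% lower. In total 53.3% of the members passed, against 36.5% of tested genes. In 26 members, or 57.8%, the 4 melatonin libraries did not overlap the 4 vehicle libraries, against 37.7% of tested genes. The members were well counted, with a median level of 168 CPM against 14.2 CPM for all tested genes and at least 229 counts in each library, so these shares are not matched for level. Changes were small. Their median log2 fold change was 0.18 (0.01 over all tested genes), the range ran from -1.00 for Ctsh to 0.83 for Cln3, and 0 members changed 2-fold or more. Under scaling by library totals alone, the median of all tested genes moved from 0.01 to 0.17, and 29 members were then higher and 4 lower.

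**Figure D1:**
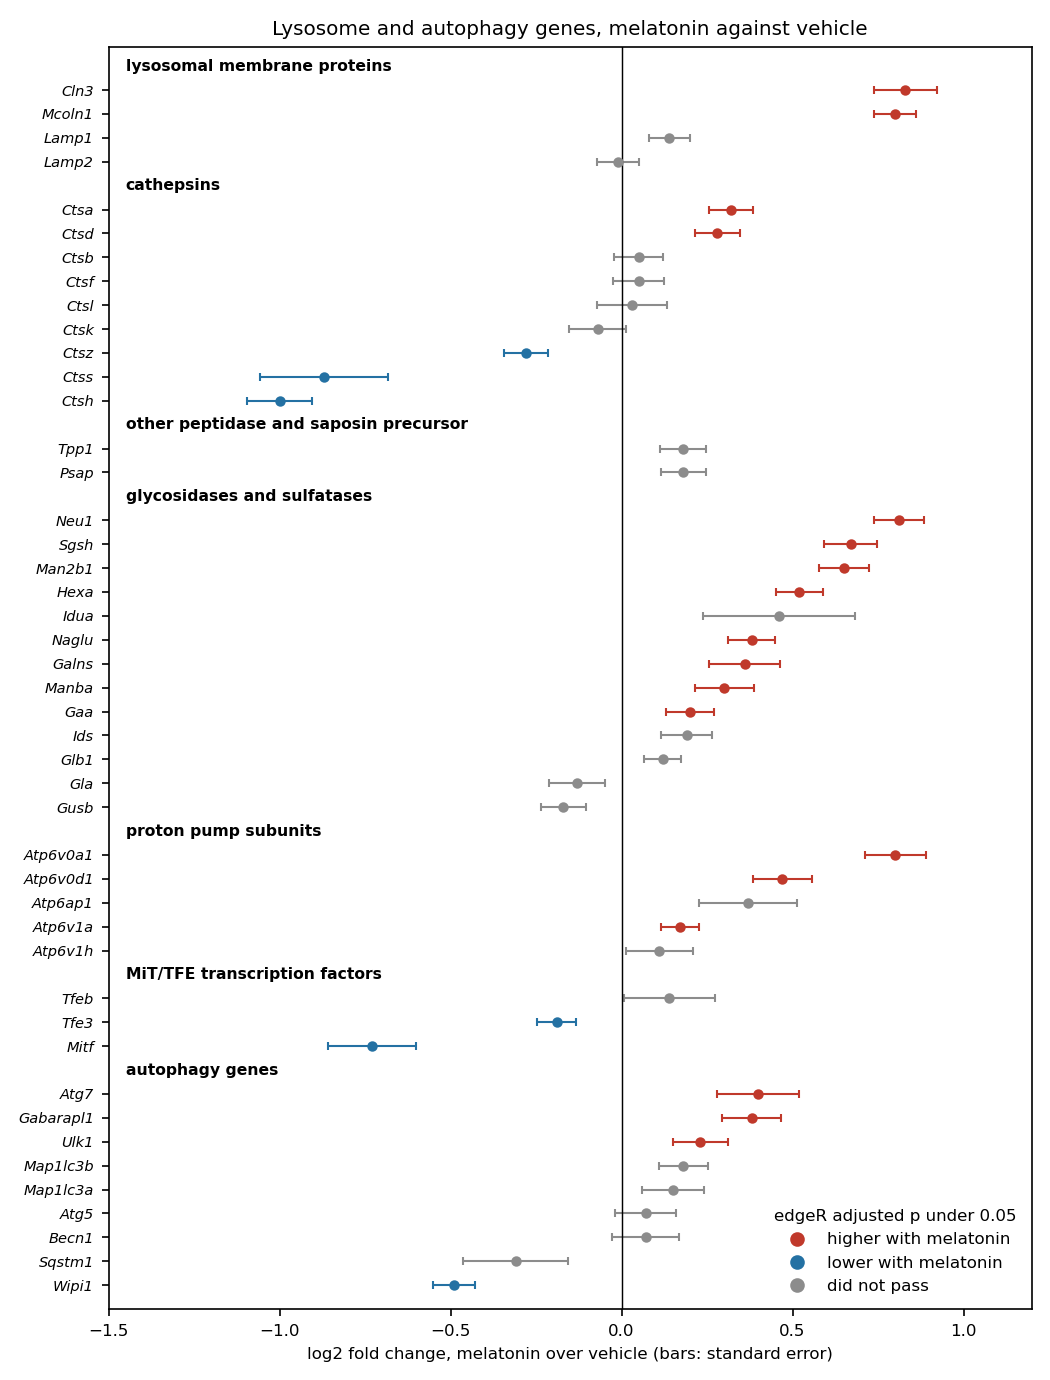
Log2 fold change, melatonin over vehicle, on the horizontal axis for each of the 45 genes (4 against 4 libraries), grouped by role, with standard errors as bars. Passing glycosidases, sulfatases, pump subunits and membrane proteins lie to the right of 0, while Ctsh, Ctss, Ctsz, Wipi1, Tfe3 and Mitf lie to the left.

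Promoter windows from RefSeq (assembly GRCm38.p6, 250 bases before to 50 after a start site) were matched for 39 of the 45 genes by symbol and were searched for the E-box CACGTG and for the core of the CLEAR element, TCACGTGA. Each motif reads the same on both strands, and every core holds an E-box, so the 2 counts overlap. The core was present for 7 of the 39 members (17.9%), against 238 of the 11559 tested genes with a window (2.06%) and 304 of the 27025 genes with one overall. An E-box was present for 16 members (41%), against 11.4% of tested genes with a window. The list holds genes long described as TFEB targets, so these shares are a description of the list. Of the 17 matched members that were higher with melatonin, 6 had the core and 10 had an E-box. Among the 5 matched members that were lower, 0 had either motif, and of the 17 that did not pass, 1 had the core and 6 had an E-box. No window was matched for Atp6v1h, Becn1, Ctsb, Ctsh, Galns or Map1lc3a.

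The windows with a core are shown because they place the MiT/TFE motif in members that did and did not differ. Each is given 5′ to 3′ on the gene's strand from 250 bases before to 20 bases after the start, with every CACGTG, and the full TCACGTGA where present, in capitals. Mcoln1 lies at chr8:3500269-3500538 on the plus strand, Cln3 at chr7:126583217-126583486 on the minus strand, Atp6v0d1 at chr8:105566045-105566314 on the minus strand and Ctsa at chr2:164833523-164833792 on the plus strand. Ctsd lies at chr7:142387808-142388077, Atp6v1a at chr16:44139240-44139509 and Gla at chrX:134600986-134601255, each on the minus strand.
Mcoln1: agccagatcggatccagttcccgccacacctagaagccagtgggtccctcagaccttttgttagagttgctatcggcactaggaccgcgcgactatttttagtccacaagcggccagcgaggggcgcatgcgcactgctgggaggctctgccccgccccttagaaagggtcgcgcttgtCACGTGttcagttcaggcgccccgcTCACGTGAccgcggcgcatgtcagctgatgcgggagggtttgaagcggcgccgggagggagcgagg
Cln3: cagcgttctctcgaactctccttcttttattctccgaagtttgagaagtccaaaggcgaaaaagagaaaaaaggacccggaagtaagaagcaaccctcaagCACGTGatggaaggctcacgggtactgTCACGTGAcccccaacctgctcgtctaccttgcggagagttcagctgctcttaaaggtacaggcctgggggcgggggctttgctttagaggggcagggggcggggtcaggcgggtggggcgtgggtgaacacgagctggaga
Atp6v0d1: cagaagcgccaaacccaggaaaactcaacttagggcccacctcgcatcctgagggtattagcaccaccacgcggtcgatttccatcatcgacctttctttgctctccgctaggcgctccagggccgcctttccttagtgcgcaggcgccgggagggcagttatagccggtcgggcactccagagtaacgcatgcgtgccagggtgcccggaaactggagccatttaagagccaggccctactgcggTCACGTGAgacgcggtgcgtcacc
Ctsa: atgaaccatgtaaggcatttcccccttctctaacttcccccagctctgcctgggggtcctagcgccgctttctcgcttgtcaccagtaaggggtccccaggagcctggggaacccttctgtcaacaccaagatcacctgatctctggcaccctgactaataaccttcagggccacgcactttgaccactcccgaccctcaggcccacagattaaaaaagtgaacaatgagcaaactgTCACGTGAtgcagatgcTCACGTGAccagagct
Ctsd: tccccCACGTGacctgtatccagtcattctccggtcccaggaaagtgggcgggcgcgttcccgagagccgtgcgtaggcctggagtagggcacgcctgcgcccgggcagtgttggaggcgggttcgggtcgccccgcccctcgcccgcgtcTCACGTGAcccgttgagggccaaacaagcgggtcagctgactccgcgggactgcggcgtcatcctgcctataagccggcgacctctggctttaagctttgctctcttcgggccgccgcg
Atp6v1a: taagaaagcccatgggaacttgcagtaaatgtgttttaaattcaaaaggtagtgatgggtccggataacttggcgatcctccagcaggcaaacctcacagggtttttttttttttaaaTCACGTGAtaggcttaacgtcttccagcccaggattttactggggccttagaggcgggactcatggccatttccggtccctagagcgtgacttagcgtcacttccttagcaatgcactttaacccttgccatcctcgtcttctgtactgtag
Gla: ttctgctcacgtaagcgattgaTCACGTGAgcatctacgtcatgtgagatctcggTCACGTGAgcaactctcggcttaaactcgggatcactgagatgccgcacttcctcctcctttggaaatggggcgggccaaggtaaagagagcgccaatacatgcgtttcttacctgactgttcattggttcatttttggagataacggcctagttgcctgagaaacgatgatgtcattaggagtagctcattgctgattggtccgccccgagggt
Mcoln1 has a second E-box upstream of its core, Cln3 and Ctsd also have 1 E-box outside the core, and Ctsa and Gla have 2 cores each. Ctsa and Cln3 each also have a window at another start site, not shown, which holds neither motif. The core begins 4 bases before the start in Atp6v0d1, 46 in Mcoln1, 13 in Ctsa (whose other core begins past the start), 99 in Ctsd, 122 in Cln3 and 132 in Atp6v1a, and the cores of Gla lie farthest out, at 228 and 195 bases before it. The 6 genes other than Gla were higher with melatonin, and Gla did not pass (log2 fold change -0.13 ± 0.082 (SE), adjusted p 0.25 by edgeR). Lamp1, with 4 E-boxes and no full core in its window, also did not pass.

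Among the lysosomal membrane proteins, Mcoln1 and Cln3 rose, and Lamp1 and Lamp2 did not pass. Mcoln1 encodes the calcium release channel TRPML1 (chr8:3500457-3515232 in GRCm38). Its level was 49.7, 45.0, 49.7 and 46.7 CPM in vehicle replicates 1 to 4 and 86.3, 82.2, 79.7 and 85.3 CPM in melatonin replicates 1 to 4. The groups lay far apart relative to their spread, and the level with melatonin was 1.74 times that with vehicle (log2 fold change 0.80 ± 0.062 (SE), adjusted p 1.0e-05 by edgeR). Cln3, the gene mutated in juvenile neuronal ceroid lipofuscinosis, encodes a multi-pass protein of the lysosomal membrane. Cln3 was at 6.08, 6.09, 6.03 and 6.06 CPM with vehicle and at 11.2, 11.7, 10.4 and 9.76 CPM with melatonin. Every melatonin library lay above every vehicle library, and the log2 fold change of 0.83 ± 0.093 (SE, edgeR adjusted p 9.7e-05) was the highest of the 45. The SD of the 4 vehicle libraries (0.0262 CPM) is below the 0.359 CPM that counting alone would give at this depth. Cln3 shares 442 exon bases with Apobr on the opposite strand, which fell (log2 fold change -0.51).

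The lysosome-associated membrane proteins LAMP1 and LAMP2 coat the inner face of the lysosomal wall and are among its most abundant proteins. Lamp1 was at 1933 to 2037 CPM with vehicle and 2069.6 to 2313 CPM with melatonin. These groups did not overlap, but the difference was small and missed the threshold (log2 fold change 0.14 ± 0.060, adjusted p 0.099 by edgeR). Lamp2 ran from 670.1 to 737 CPM with vehicle and from 650.5 to 716 CPM with melatonin, and its log2 fold change of -0.01 (adjusted p 0.92) turned to 0.15 with library totals alone and to 0.0041 with upper-quartile scaling.

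Of the 9 cathepsins, the main lysosomal proteases, 2 (22.2%) rose, 3 (33.3%) fell and 4 did not pass. Among all tested genes 18.1% were higher and 18.5% lower. The median log2 fold change of the cathepsins was 0.03. Ctsh, whose product is an aminopeptidase of the cysteine cathepsin family (chr9:90054152-90076089 in GRCm38), had the largest fall of any member. Its level was 224, 244, 219 and 218 CPM with vehicle and 103, 119, 99.6 and 132 CPM with melatonin. No melatonin library came near the vehicle range, and vehicle was 1.99 times as high (log2 fold change -1.00 ± 0.094 (SE), adjusted p 3.4e-05 by edgeR). Ctss encodes cathepsin S, best known from antigen-presenting cells. It was at 16.0, 19.7, 16.7 and 14.7 CPM with vehicle and at 10.1, 12.0, 8.32 and 6.14 CPM with melatonin. The groups did not overlap, although the melatonin libraries spread widely (log2 fold change -0.87 ± 0.187, adjusted p 0.005 by edgeR).

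Some macrophage markers also fell. Csf1r, the macrophage growth factor receptor, was at 24.5, 34.6, 31.7 and 25.4 CPM with vehicle and at 20.9, 17.4, 20.9 and 9.52 CPM with melatonin. Over the whole macrophage list, 2 of 9 tested genes fell (Csf1r and Cd14), 1 rose (Mrc1) and 6 did not pass. That is 33.3% passed, against 36.5% of all tested genes. The summed level of the whole list overlapped, at 517 to 783 CPM with vehicle and 327 to 600.5 CPM with melatonin. Lyz2, the most abundant of the list, did not pass. Without it the sum was 158 to 229.6 CPM with vehicle and 72.6 to 144 CPM with melatonin, within which Cd14 fell from 57.6 to 26.3 CPM on average. Cx3cr1 was near 0 in both groups. Without melatonin replicate 4 the log2 fold change of Ctss was -0.72 (edgeR adjusted p 0.0031), and the part of the macrophage markers in it was not tested.

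Ctsz encodes the carboxypeptidase cathepsin Z, and it fell by less. Ctsz was at 863, 949, 961 and 883 CPM with vehicle and at 771, 789, 727 and 723 CPM with melatonin. The groups were apart (log2 fold change -0.28 ± 0.064, adjusted p 0.0069 by edgeR), but with library totals alone the log2 fold change was -0.12 and did not pass (adjusted p 0.11). The aspartic protease gene Ctsd rose. It was at 2831, 3129, 3162 and 3000.4 CPM with vehicle and at 3702, 3637, 3443 and 3910.4 CPM with melatonin. All melatonin libraries were above all vehicle libraries, by 1.21 times on average (log2 fold change 0.28 ± 0.066, adjusted p 0.0088 by edgeR).

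Ctsa encodes the serine carboxypeptidase that also stabilises the sialidase of Neu1. It rose from 552, 583, 566 and 544 CPM with vehicle to 698, 729, 645 and 734 CPM with melatonin. The groups did not overlap (log2 fold change 0.32 ± 0.063, adjusted p 0.003 by edgeR). Ctsa shares 495 exon bases with Pltp on the opposite strand, and Pltp itself rose from 133 to 211 CPM on average. Ctsd shares 808 exon bases with Gm49369 on the same strand, which was at 8.96 and 12.0 CPM. Neither the read assignment nor its strand setting is stated in the labels, so reads of such pairs cannot be told apart. The cysteine cathepsin genes Ctsb, Ctsf, Ctsk (the collagen-degrading cathepsin of bone) and Ctsl did not pass, with overlapping groups. Their log2 fold changes were 0.05, 0.05, -0.07 and 0.03 in that order, and that of Ctsk was 0.09 with library totals alone. Ctsf turned to -0.0028 without vehicle replicate 1 and Ctsl to -0.03 without vehicle replicate 4, so no direction holds for either.

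**Figure D2:**
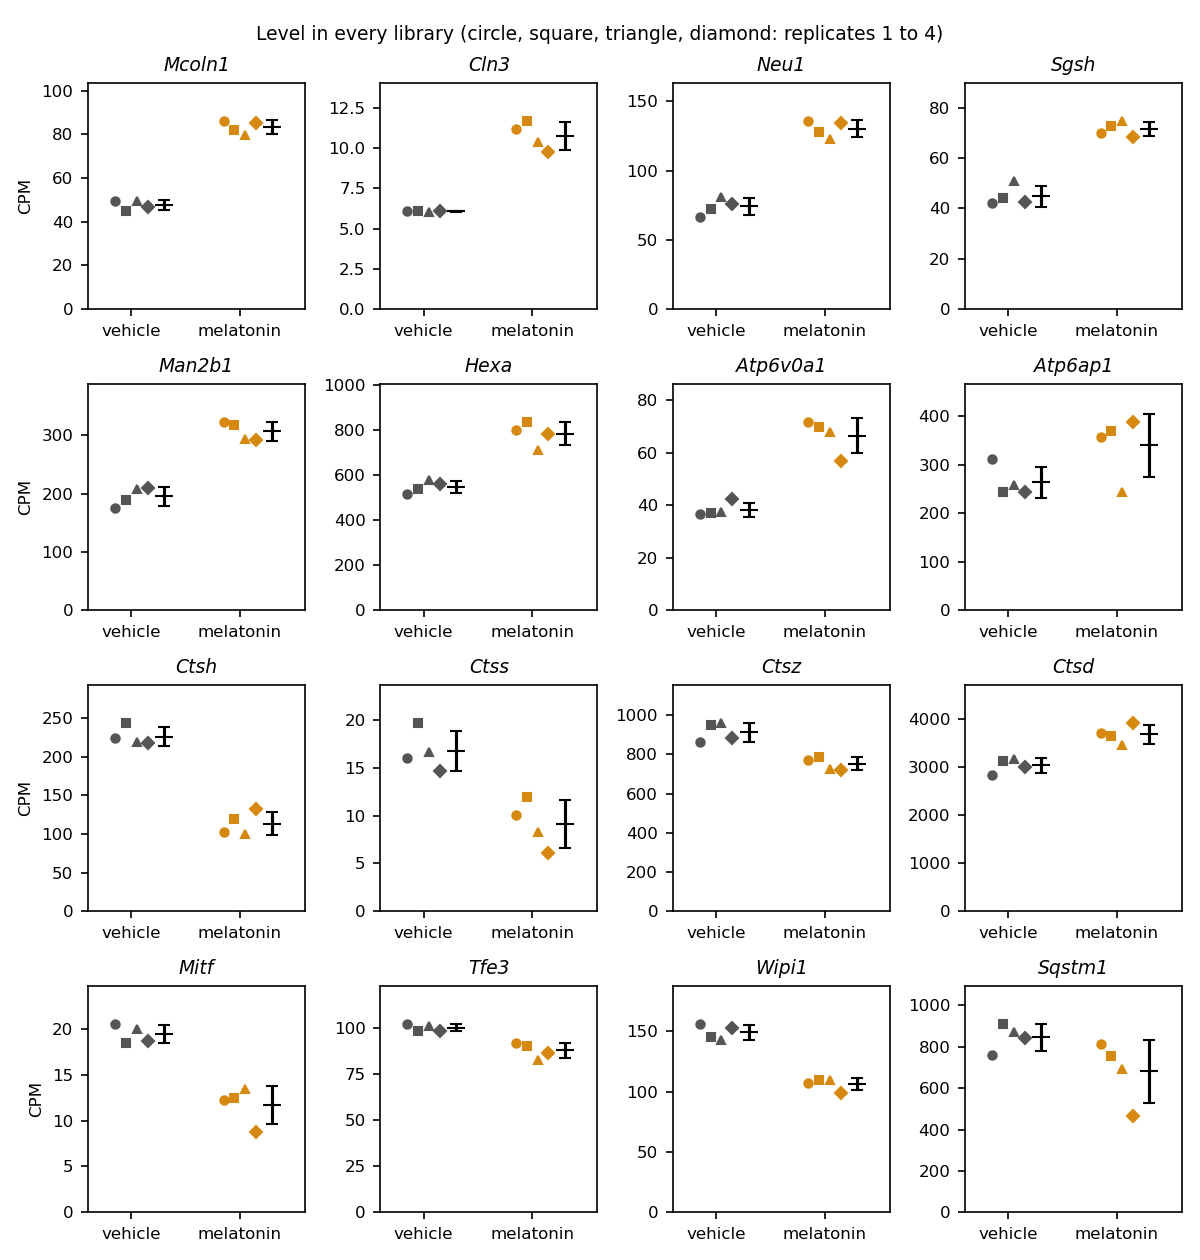
CPM in each library on the vertical axis (from 0) for 16 of the genes, with vehicle in grey and melatonin in orange, and the mean and SD of 4 libraries beside the points. Ctsh, Mcoln1 and Neu1 show separated groups, whereas Sqstm1 and Atp6ap1 overlap, with melatonin replicate 4 lowest for Sqstm1 and melatonin replicate 3 lowest among melatonin libraries for Atp6ap1.

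Tpp1 (tripeptidyl peptidase, the product deficient in late infantile neuronal ceroid lipofuscinosis) and Psap (precursor of the saposins that help degrade sphingolipids) each had a log2 fold change of 0.18 with an edgeR adjusted p of 0.061. Tpp1 was at 277 to 296 CPM with vehicle and 298 to 349 CPM with melatonin. Psap was at 2627 to 2919 CPM with vehicle and 2974 to 3357 CPM with melatonin. The groups of both genes were apart but narrowly so. Tpp1 passed without melatonin replicate 3 (adjusted p 0.018) and Psap without melatonin replicate 4 (adjusted p 0.013).

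The 13 glycosidases and sulfatases, the largest role, take glycans and glycosaminoglycans apart from their ends. The share of them that passed was 61.5%, against 66.7% of the MiT/TFE genes, 60% of the pump subunits and 36.5% of all tested genes. In edgeR 8 of the 13 rose, 0 fell and 5 did not pass, with a median log2 fold change of 0.36. At an unadjusted p under 0.05, 10 were higher and 1 lower (Gusb), DESeq2 gave 8 and 1, and limma-voom gave 8 and 0. Their summed level was 2585 to 2866 CPM with vehicle and 3251 to 3504 CPM with melatonin. Neu1 encodes the lysosomal sialidase (chr17:34931253-34935953 in GRCm38). It was at 66.8, 72.4, 81.2 and 76.1 CPM with vehicle and at 136, 128, 123 and 134 CPM with melatonin. The lowest melatonin library was well above the highest vehicle library, and the ratio of means was 1.75 (log2 fold change 0.81 ± 0.073 (SE), adjusted p 2.5e-05 by edgeR).

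Among the enzymes of glycosaminoglycan breakdown, 3 rose and 3 did not pass. Sgsh, the heparan N-sulfatase, was at 42.1, 44.1, 51.0 and 42.4 CPM with vehicle and at 69.8, 72.7, 74.9 and 68.6 CPM with melatonin. Its groups were apart, and it rose 1.59-fold (log2 fold change 0.67 ± 0.077, adjusted p 1.1e-04 by edgeR). Naglu, which removes N-acetylglucosamine from heparan sulfate, was at 132, 146, 158 and 152 CPM with vehicle and at 194, 200.4, 181 and 187 CPM with melatonin. It rose too, with no overlap (log2 fold change 0.38 ± 0.070, adjusted p 0.0021). Galns, a sulfatase of keratan sulfate, was at 36.5 to 40.6 CPM with vehicle and at 54.3, 54.4, 39.6 and 52.5 CPM with melatonin. Melatonin replicate 3 lay inside the vehicle range and the other 3 melatonin libraries above it (log2 fold change 0.36 ± 0.104, adjusted p 0.022 by edgeR). The call for Galns was lost without vehicle replicate 4, melatonin replicate 1 or melatonin replicate 2 (adjusted p 0.057 to 0.063).

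Gusb, Idua and Ids act in the same breakdown (a glucuronidase, an iduronidase and a sulfatase of iduronate) and did not pass. Gusb was at 159.9 to 191 CPM with vehicle and 156 to 160.2 CPM with melatonin (log2 fold change -0.17, edgeR adjusted p 0.066), and it passed without vehicle replicate 1 (0.02). Idua was at 17.3, 14.8, 18.7 and 27.7 CPM with vehicle and at 23.5, 20.8, 27.3 and 36.2 CPM with melatonin. Within each group Idua was highest in replicate 4, and the groups overlapped (log2 fold change 0.46 ± 0.222, adjusted p 0.14). It passed without vehicle replicate 4 (0.67, adjusted p 0.026). Ids was at 58.2 to 72.4 CPM with vehicle and at 73.9 to 77.8 CPM with melatonin, apart but short of the threshold (log2 fold change 0.19, adjusted p 0.074), and it passed without vehicle replicate 1 (adjusted p 0.04).

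Enzymes of glycoprotein, glycolipid and glycogen breakdown also rose. Man2b1, the lysosomal alpha-mannosidase, was at 175, 189, 207 and 209.6 CPM with vehicle and at 323, 317, 294 and 292 CPM with melatonin. The groups did not overlap (log2 fold change 0.65 ± 0.074, adjusted p 1.1e-04 by edgeR). Hexa, the alpha chain of beta-hexosaminidase, was at 515, 538, 577 and 560 CPM with vehicle and at 799, 836, 713 and 784 CPM with melatonin. It rose 1.43-fold with no overlap (log2 fold change 0.52 ± 0.069, adjusted p 3.0e-04 by edgeR). The beta-mannosidase gene Manba was at 39.2 to 45.9 CPM with vehicle and at 46.7 to 59.2 CPM with melatonin, apart by a small margin (log2 fold change 0.30 ± 0.086, adjusted p 0.022), and it lost the call without vehicle replicate 1 or 2 (adjusted p 0.053 to 0.064). Gaa, the acid alpha-glucosidase of glycogen breakdown, overlapped between groups, at 1047 to 1160.3 CPM with vehicle and 1142 to 1334 CPM with melatonin. It passed narrowly (log2 fold change 0.20 ± 0.069, adjusted p 0.049) and did not pass when any library other than melatonin replicate 4 was left out (adjusted p 0.058 to 0.13).

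The galactosidase genes did not pass. Gla, the alpha-galactosidase deficient in Fabry disease, was at 60.9 to 71.1 CPM with vehicle and 54.7 to 66.8 CPM with melatonin, and its log2 fold change was -0.13 (0.03 with library totals alone). The beta-galactosidase gene Glb1 was at 188 to 201 CPM with vehicle and 206 to 221 CPM with melatonin. Its groups were apart by a small margin (log2 fold change 0.12, edgeR adjusted p 0.11).

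Of the 5 subunits and accessory parts of the proton pump (the V-ATPase), 3 rose and 2 did not pass in edgeR. That is 60% higher, against 18.1% of all tested genes, and the median log2 fold change was 0.37. None fell by edgeR at an unadjusted p under 0.05, by DESeq2 or by limma-voom. Atp6v0a1 encodes an a subunit of the membrane sector, which carries the protons. It was at 36.7, 36.8, 37.3 and 42.2 CPM with vehicle and at 71.7, 69.8, 67.8 and 56.6 CPM with melatonin. Vehicle replicate 4 was the highest vehicle library and melatonin replicate 4 the lowest melatonin library, but the groups stayed apart (log2 fold change 0.80 ± 0.089 (SE), adjusted p 9.6e-05 by edgeR). Atp6v0d1, the d subunit of the same sector, was at 169, 191, 187 and 179 CPM with vehicle and at 247, 255, 218 and 289 CPM with melatonin. It rose 1.39-fold with no overlap (log2 fold change 0.47 ± 0.087, adjusted p 0.0021 by edgeR).

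Atp6v1a encodes the catalytic subunit that splits ATP in the cytosolic sector. It was at 157 to 166 CPM with vehicle and at 173 to 189 CPM with melatonin, apart by a small margin (log2 fold change 0.17 ± 0.056, edgeR adjusted p 0.041). Atp6v1a did not pass without any 1 of the 4 vehicle libraries or without melatonin replicate 1 or 3 (adjusted p 0.052 to 0.099). The accessory gene Atp6ap1 was at 311, 243, 257 and 243 CPM with vehicle and at 357, 369, 244 and 388 CPM with melatonin. Melatonin replicate 3 lay within the vehicle range, and the test missed the threshold (log2 fold change 0.37 ± 0.144, adjusted p 0.075). It passed without melatonin replicate 3 (0.51, adjusted p 0.0047) or without vehicle replicate 1 (adjusted p 0.047). Atp6v1h, a regulatory subunit, was at 83.0 to 98.4 CPM with vehicle and at 93.2, 93.3, 93.5 and 120.3 CPM with melatonin. Its groups overlapped and it did not pass (log2 fold change 0.11, adjusted p 0.43). Without melatonin replicate 4 that value was 0.02.

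Of the 3 MiT/TFE factor genes, 2 fell (66.7%, against 18.5% of all tested genes) and Tfeb did not pass in edgeR. None was higher in edgeR at an unadjusted p under 0.05, in DESeq2 or in limma-voom. Mitf was at 20.5, 18.4, 20.0 and 18.7 CPM with vehicle and at 12.2, 12.4, 13.4 and 8.72 CPM with melatonin. All melatonin libraries were below all vehicle libraries, with replicate 4 the lowest (log2 fold change -0.73 ± 0.128 (SE), adjusted p 0.0015 by edgeR). Without melatonin replicate 4 the value was -0.61. Tfe3 was at 102, 98.3, 101 and 98.3 CPM with vehicle and at 91.7, 90.1, 82.8 and 86.3 CPM with melatonin. The groups were apart but the change was small (log2 fold change -0.19 ± 0.057, adjusted p 0.025). Tfe3 lost the call without vehicle replicate 1, 3 or 4 or melatonin replicate 2 or 3 (adjusted p 0.051 to 0.082), and with library totals alone it was at -0.03 (adjusted p 0.67). Tfeb was at 11.2, 13.1, 9.75 and 11.9 CPM with vehicle and at 13.6, 10.9, 15.1 and 11.2 CPM with melatonin, overlapping (log2 fold change 0.14 ± 0.134, adjusted p 0.44). The counts give transcript levels only, and the location of these factors in the cell was not measured.

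The 9 autophagy genes gave 3 that rose, 1 that fell and 5 that did not pass, with a median log2 fold change of 0.15. That is 44.4% passed, near the 36.5% of all tested genes. The groups did not overlap in 33.3% of them, against 37.7% of all tested genes. Wipi1, whose product binds the phosphoinositide that marks a forming autophagosome, was at 156, 145, 143 and 153 CPM with vehicle and at 107, 109.6, 109.9 and 98.9 CPM with melatonin. The groups did not overlap (log2 fold change -0.49 ± 0.061 (SE), adjusted p 1.9e-04 by edgeR). Gabarapl1 belongs to the family of ubiquitin-like proteins, with LC3, that are joined to the autophagosome membrane. It was at 141, 154, 151 and 169 CPM with vehicle and at 191, 208, 178 and 225 CPM with melatonin. It rose 1.3-fold with no overlap (log2 fold change 0.38 ± 0.087, adjusted p 0.0071 by edgeR).

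The LC3 genes did not pass. Map1lc3a was at 123 to 148 CPM with vehicle and 130 to 169 CPM with melatonin, overlapping (log2 fold change 0.15, edgeR adjusted p 0.21). Map1lc3b was at 213 to 251 CPM with vehicle and 251 to 285 CPM with melatonin, apart by less than 1 CPM (log2 fold change 0.18, adjusted p 0.07), and it passed without melatonin replicate 3 (adjusted p 0.036). Map1lc3b shares 58 exon bases with Zcchc14 on the opposite strand, which rose (log2 fold change 0.55).

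Atg7 encodes the E1-like enzyme that activates the ubiquitin-like proteins. It was at 44.7, 37.8, 47.6 and 41.9 CPM with vehicle and at 66.0, 53.3, 61.8 and 45.5 CPM with melatonin. Only melatonin replicate 4 lay inside the vehicle range (log2 fold change 0.40 ± 0.120, adjusted p 0.027 by edgeR). The call was lost without vehicle replicate 1, 2 or 4 or melatonin replicate 1 or 3 (adjusted p 0.051 to 0.072). Ulk1, the kinase that starts autophagy, was at 110.1, 103, 103 and 106 CPM with vehicle and at 121, 130, 138 and 107 CPM with melatonin. Again only melatonin replicate 4 lay within the vehicle range (log2 fold change 0.23 ± 0.080, adjusted p 0.045). Ulk1 did not pass without any 1 library other than melatonin replicate 4 (adjusted p 0.062 to 0.1).

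Becn1, a subunit of the lipid kinase complex of autophagosome formation, and Atg5, which is joined to Atg12 to attach LC3, overlapped between groups. Each had a log2 fold change of 0.07 (edgeR adjusted p 0.61). Sqstm1 encodes p62, the receptor that carries ubiquitin-tagged cargo into autophagosomes and is itself degraded there. It was at 758, 909, 870.3 and 843 CPM with vehicle and at 814, 757, 691 and 467 CPM with melatonin. The highest melatonin library lay within the vehicle range and melatonin replicate 4 far below it (log2 fold change -0.31 ± 0.153, adjusted p 0.15 by edgeR), and without that library the value was -0.15.

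Levels between genes were compared per kilobase of the longest coding transcript, in CPM per kilobase. With vehicle, Ctsd (1425 ± 70.5, SD, n = 4), Psap (1061 ± 49.8) and Lamp1 (894 ± 22.9) were the highest of the 45, each apart from the next by more than its SD. Among cathepsins the order went on with Ctsz (634 ± 33.5) and Ctsb (403 ± 27.2). Ctsk (161 ± 12.6) and Ctsa (154 ± 4.73) came next and did not differ beyond their spread. Ctsh (139.8 ± 7.45) and Ctsl (119 ± 10.9) followed, then Ctsf (61.0 ± 5.15) and Ctss (12.4 ± 1.54). With melatonin Ctsh fell to 70.1 ± 9.22, near Ctsf at 63.3 ± 3.22. The transcription factor genes were low, with Tfe3 at 29.5 ± 0.600, Tfeb at 4.91 ± 0.597 and Mitf at 3.98 ± 0.205 with vehicle. The summed level of the 9 cathepsins, in CPM, was 7301 to 8093 with vehicle and 7828 to 8668 with melatonin, overlapping, while Ctsh and Ctss fell. These lengths are those of the annotation, and the transcripts present in the cells were not measured.

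**Figure D3:**
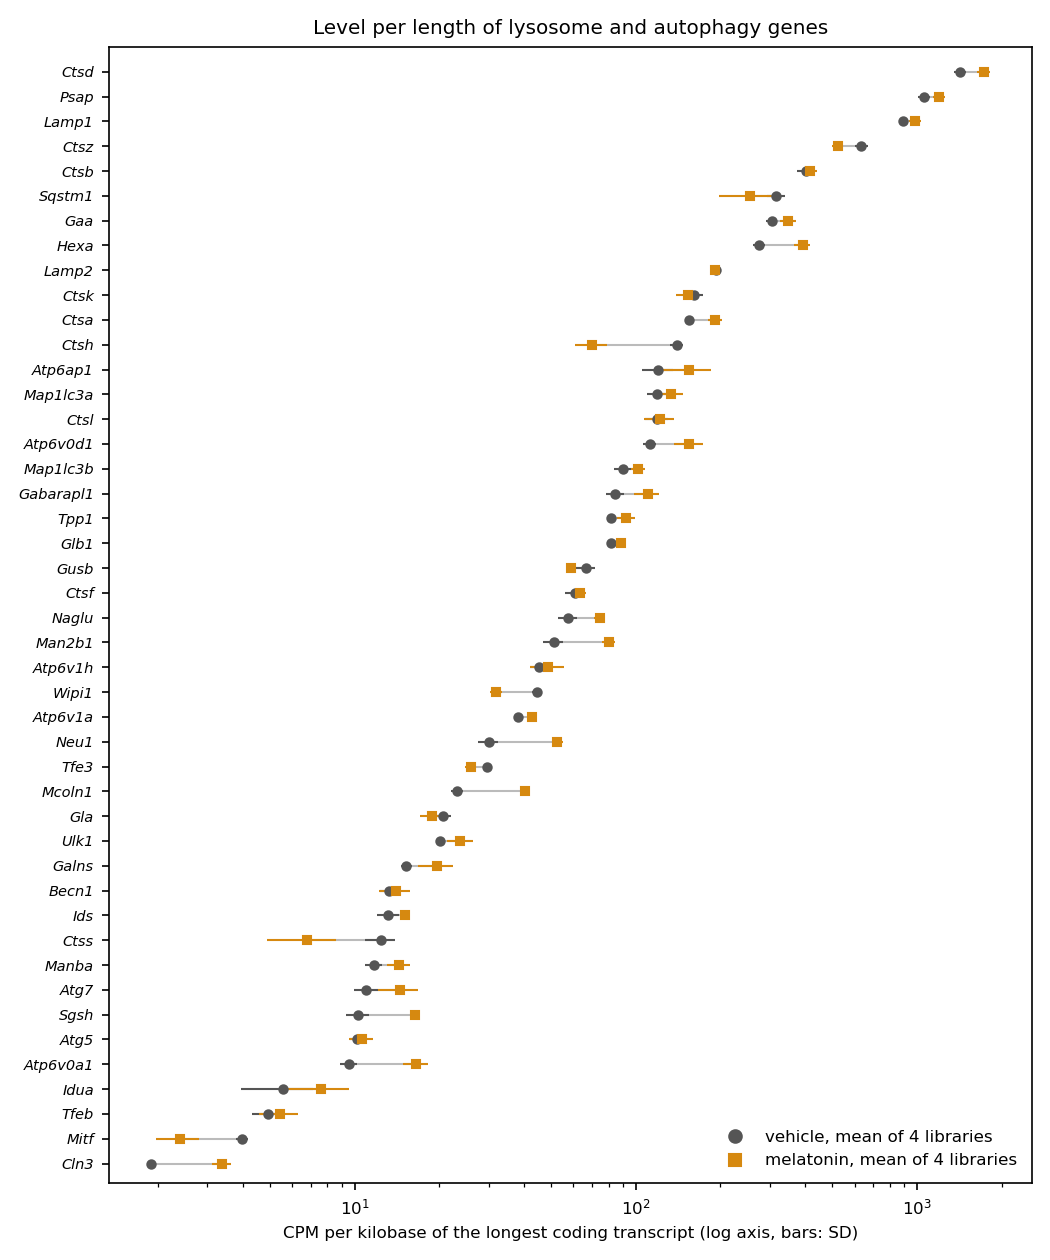
Mean CPM per kilobase of the longest coding transcript on a log axis for each gene, with vehicle as circles, melatonin as squares and the SD of 4 libraries as bars. Ctsd, Psap and Lamp1 head the order and Tfeb, Mitf and Cln3 end it.

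Other genes of the same pathways, 146 of them tested in 6 lists, gave 47 that rose, 12 that fell and 87 that did not pass, with a median log2 fold change of 0.15. That is 32.2% higher and 8.22% lower, or 40.4% passed, against 18.1%, 18.5% and 36.5% of all tested genes. Up to 3 that rose and 3 that fell are named from each list by the smallest p. Of 30 other hydrolases and activators, 10 (33.3%) rose and 6 (20%) fell (median 0.12). Dnase2a, the lysosomal DNase, rose from 20.0 ± 1.4 to 31.6 ± 2.34 CPM (SD, n = 4 per group, edgeR adjusted p 2.1e-04). Hgsnat, which acetylates heparan sulfate ends ahead of Naglu, and Pld3 rose with log2 fold changes of 0.37 and 0.39. Acp5, an acid phosphatase that also marks osteoclasts, fell by 0.76 on the log2 scale, and Rnaset2b by 0.69, though its reads may be shared with its close copy Rnaset2a. Of the other osteoclast markers in the table, Calcr fell (33.1 to 3.52 CPM on average) and Atp6v0d2 rose from a low level (0.691 to 1.63 CPM). Oscar did not pass and Ocstamp was near 0. The list summed to 59.7 to 66.3 CPM with vehicle and 19.3 to 25.8 CPM with melatonin, but this sum includes Acp5 itself (28.0 and 16.6 CPM) and is otherwise mostly Calcr. The part of the other osteoclast markers in the fall of Acp5 was not tested.

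Of 24 other membrane and sorting proteins, 8 (33.3%) rose and 2 (8.33%) fell (median 0.23). Sort1, a receptor that sorts cargo from the Golgi to endosomes and lysosomes, rose most among all listed pathway genes, from 19.5 ± 1.83 to 98.1 ± 19.3 CPM (SD, n = 4 per group, log2 fold change 2.33 ± 0.147 (SE), edgeR adjusted p 3.8e-06). Ctns, the cystine exporter, rose from 20.9 ± 1.73 to 45.7 ± 1.37 CPM (log2 fold change 1.13, edgeR adjusted p 5.1e-06), and Npc1, the cholesterol exporter, had a log2 fold change of 0.44. Scarb2, a membrane protein of lysosomes, fell from 251 ± 15.4 to 153 ± 7.9 CPM (log2 fold change -0.71, edgeR adjusted p 3.6e-05). M6pr, a mannose 6-phosphate receptor, fell by 0.23 on the log2 scale but did not pass without vehicle replicate 3 (adjusted p 0.051) or with library totals alone (adjusted p 0.35), and the 2 falls became 1 without vehicle replicate 3 and 3 without melatonin replicate 4.

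Of 15 other pump subunits tested, 7 (46.7%) rose and 1 (6.67%) fell (median 0.28). Atp6v1b2, the partner of Atp6v1a in the catalytic ring, rose from 124 ± 10.1 to 203 ± 9.58 CPM (SD, n = 4 per group, edgeR adjusted p 6.1e-05). Atp6v0b and Atp6v0e2 rose with log2 fold changes of 0.47 and 0.48. Tcirg1, the a3 subunit known from osteoclasts, fell from 149 ± 14.2 to 90.4 ± 15.8 CPM (log2 fold change -0.72, edgeR adjusted p 0.0012), opposite to the a1 subunit gene Atp6v0a1.

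Of 35 other genes of the autophagy machinery, 5 (14.3%) rose, 2 (5.71%) fell and 28 did not pass (median 0.03). The share that passed, 20%, was below the 36.5% of all tested genes. Atg14, a subunit of the Becn1 complex, rose from 12.6 ± 0.849 to 18.0 ± 0.748 CPM (edgeR adjusted p 9.0e-04), and Atg3 and Atg12 rose by log2 values of 0.23 and 0.25. Atg9b fell from 1.08 ± 0.0662 to 0.268 ± 0.0498 CPM (log2 fold change -2.00) and the protease gene Atg4a fell by 0.50 on the log2 scale. Atg3 lost its call without vehicle replicate 3 (adjusted p 0.051) and Atg12 without vehicle replicate 1 or 3 (0.05 to 0.061). The 5 rises became 2 without vehicle replicate 1, 1 without vehicle replicate 3, 3 without vehicle replicate 4 or melatonin replicate 1, and 8 without melatonin replicate 4.

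Of 16 other autophagy receptors, 5 (31.2%) rose and 1 (6.25%) fell (median 0.09). The share that passed, 37.5%, was near the 36.5% of all tested genes. Bnip3, a mitophagy receptor, fell from 278 ± 17.8 to 125 ± 18.3 CPM (SD, n = 4 per group, log2 fold change -1.15 ± 0.105 (SE), edgeR adjusted p 2.7e-05). Calcoco1 and Nbr1 rose with log2 fold changes of 0.49 and 0.43, the latter with overlapping groups, and Tollip with 0.22. The call for Tollip was lost without vehicle replicate 1 or 2 (adjusted p 0.062 to 0.064). The 5 rises became 2 without vehicle replicate 1 and 3 without vehicle replicate 2 or 3 or melatonin replicate 1 or 2, and the 1 fall became 2 without melatonin replicate 3.

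Of 26 genes that sense nutrients upstream of TFEB, 12 (46.2%) rose and 0 fell at an edgeR adjusted p under 0.05 (median log2 fold change 0.27). At an unadjusted p under 0.05, 13 were higher and 0 lower, and DESeq2 and limma-voom each gave 12 and 0. Sesn1, a sestrin that restrains mTORC1, rose from 18.4 ± 1.08 to 31.6 ± 0.93 CPM (SD, n = 4 per group, log2 fold change 0.78, adjusted p 2.8e-05). Rragd and Rragc encode Rag GTPases that bring mTORC1 and the MiT/TFE factors to the lysosome. Rragd rose from 4.75 ± 0.447 to 8.93 ± 0.201 CPM (log2 fold change 0.91) and Rragc from 123 ± 4.68 to 162 ± 3.84 CPM (log2 fold change 0.40). The 12 rises became 8 without vehicle replicate 1 or 2, and 9 without vehicle replicate 3 or melatonin replicate 1 or 3. They numbered 10 without melatonin replicate 2 and stayed at 12 without replicate 4 of either group. With the replicate number as a block, or at a threshold of 0.01, 8 rose. Without melatonin replicate 4 the count of genes that fell was 1 in place of 0.

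**Figure D4:**
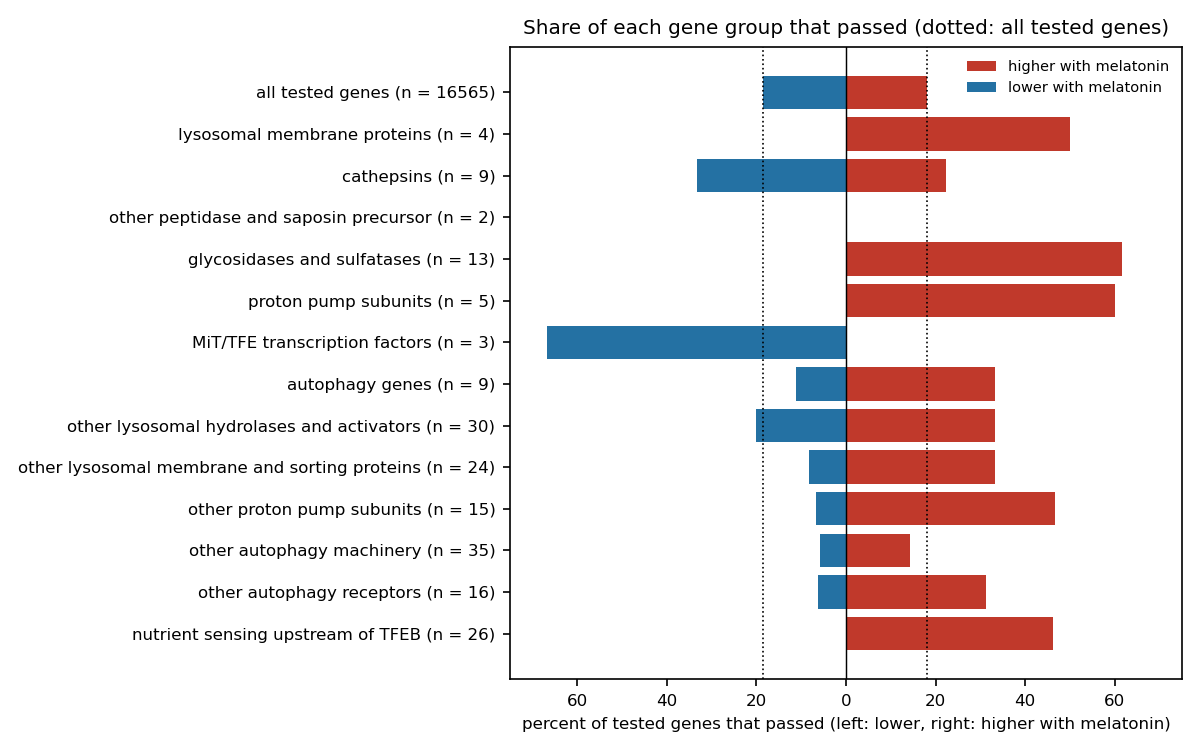
Percent of the tested genes in each group that were higher (right) or lower (left) with melatonin at an edgeR adjusted p under 0.05, with dotted lines at the shares of all tested genes (18.1% and 18.5%). The glycosidases and sulfatases (61.5% higher) and the nutrient sensing genes (46.2% higher) have no bar to the left, and the MiT/TFE genes have none to the right.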

How the data were processed

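The authors deposited raw counts per Ensembl gene for all 8 libraries. HISAT2 2.0, StringTie 1.3.3b, DESeq2 1.12.4, Trimmomatic 0.36, FastQC 0.11.2 and bedtools 2.26.0 are listed, with build mm10, per the submitters' processing notes. How reads were assigned to genes, and whether by strand, is not given in the sources used here. Columns marked as control were read as vehicle. GENCODE M21 (GRCm38) held 20720 of the 20781 IDs, and every gene in the table has at least 11 counts in total.

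Genes were kept with filterByExpr (16565) and scaled with TMM. The factors were 0.916 to 0.9743 with vehicle and 1.048 to 1.077 with melatonin, so they did not overlap between groups. Testing used the robust quasi-likelihood F-test of edgeR 4.0.16, with group as the only term, Benjamini-Hochberg adjustment and a threshold of 0.05. The standard error is the log2 fold change over the square root of F. Replicate pairs differed by a chi-square of 24.9 to 79.3 per gene, where sampling noise gives about 1. As the labels name no animals, p-values measure the spread between these samples, which may be technical.

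The members and lists were chosen with earlier results of these data known. Every member is described, and each pathway list contributes up to 3 rising and 3 falling genes, ranked by p, except 1 that is not reported here. Markers singled out and exon-sharing neighbours were named after their values were seen. The comparison was repeated with limma-voom (limma 3.58.1), DESeq2 1.42.0, changed scaling, changed filters, a threshold of 0.01, a replicate block, and without each library.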

Additional observations from a re-analysis of the deposited data

Results flagged for a closer look

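In 5 of 90 sets of 4 libraries (each member in each group), 1 library stood far from the other 3, its gap to the nearest of them taking more of the whole range than Dixon's critical value for 4 values. Chance alone gives this in about 1 of 20 sets. Atp6v1h was at 120.3 CPM in melatonin replicate 4 and at 93.2 to 93.5 CPM in the other melatonin libraries. Atp6v0a1 was at 42.2 CPM in vehicle replicate 4 against 36.7 to 37.3 CPM in the other vehicle libraries. Galns was at 39.6 CPM in melatonin replicate 3 against 52.5 to 54.4 CPM, and in the same library Ids was at 77.8 CPM against 73.9 to 74.3 CPM. Tpp1 was at 277 CPM in vehicle replicate 4 against 294 to 296 CPM.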

How the results depend on the processing

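Of the 24 members that passed, 16 kept their direction and call under every alternative run. Of the 21 that did not pass, 4 kept both direction and call throughout. A change of sign alone took a gene out of that count, as for Lamp2, which did not pass in any run. Against 18 higher and 6 lower, DESeq2 gave 19 and 7, limma-voom 17 and 6, no filter 16 and 6, a filter of 50 counts in 4 libraries 16 and 7, and a threshold of 0.01 gave 12 and 5. Leaving out 1 library gave 13 to 19 higher and 5 to 6 lower. With library totals alone, 29 members were higher (11 that had not passed then passed, and 2 that had passed did not), and 69.5% of all passing genes were higher, against 49.4% with TMM. That setting also gave 21 other hydrolases, 15 membrane and sorting genes, 13 autophagy machinery genes and 8 receptors that rose, with 1 membrane and sorting gene that fell, and it turned the log2 fold change of Lamp2 to 0.15, of Ctsk to 0.09 and of Gla to 0.03.

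Upper-quartile scaling turned Lamp2 to 0.0041. With 1 library left out, Lamp2 ran from -0.03 to 0.03, Ctsl from -0.03 to 0.12 and Ctsf from -0.0028 to 0.09, with Lamp2 at 0.0079 and Ctsl at -0.0031 and -0.01 in single cases. The autophagy machinery genes that rose then numbered 1 to 8, the receptors that rose 2 to 5 and those that fell 1 to 2. The nutrient sensing genes that rose numbered 8 to 12 and those that fell 0 to 1, and the membrane and sorting genes that fell 1 to 3. DESeq2 and the filter of 50 counts each gave 2 other pump subunits that fell, and that filter left 1 autophagy machinery gene that fell. At a threshold of 0.01, 1 autophagy machinery gene and 1 receptor rose and 1 membrane and sorting gene fell. The cause of these changes was not tested, other than the stricter threshold and the fewer libraries themselves.

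Libraries with the same replicate number did not deviate together (correlations -0.0461 to 0.0354), and no library correlated best with its own number. With the number as a replicate block, 14 members were higher and 5 lower, 2 autophagy machinery genes and 3 receptors rose, and 1 membrane and sorting gene fell.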
